A study of Homo sapiens with 6 samples.

Results

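The expression of 10 genes that carry out or direct the last steps of cell division was compared in 2 ovarian cancer cell lines before, during and after the formation of polyploid giant cancer cells (PGCCs). The genes were taken by symbol from a table of 59008 gene symbols: ANLN, ECT2, RACGAP1, PRC1, CEP55 and CIT of the cytokinesis machinery, the Aurora kinases AURKA and AURKB, and the Polo-like kinases PLK1 and PLK4. All 10 were in the table and all 10 had a mean of at least 1 TPM (the library's transcripts of a gene, scaled for transcript length and to a fixed total), as had 14988 genes in all. RNA sequencing gave 6 libraries, 1 for each state of each line. Hey cells, grown in MEM Eagle, and SKOV3 cells, grown in RPMI-1640, were each profiled untreated (parental), as PGCCs after 500 nM paclitaxel for 16 h, and as daughter cells 30 days after the same exposure. Both PGCC treatments are labelled with 3 days of recovery, but the title of the SKOV3 PGCC library gives day 7, so a difference between the lines in PGCCs and a difference in harvest day cannot be told apart. Each daughter library is labelled as clone 1 of its line and therefore stands for a single clone. No state had a replicate within a line, so differences within a line have no replicate check and no p-value.

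Cytokinesis starts when antiparallel microtubules are bundled between the separating chromosomes and a ring of actin and myosin tightens around the cell's middle, and it ends when the remaining intercellular bridge is cut. Aurora and Polo-like kinases time these events: they act from centrosome maturation and spindle assembly through chromosome attachment to the placing of the cleavage furrow. The transcripts of most of these genes are made in G2 and mitosis, and a cell that enters mitosis but fails in cytokinesis becomes polyploid. Paclitaxel stabilizes microtubules and holds cells in mitosis.

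The promoters of G2 and mitotic genes are known for the cell cycle genes homology region (CHR), whose core is TTTGAA or TTTAAA, and for CCAAT boxes. Promoter windows from 250 bases before to 50 bases after the annotated start (RefSeq, GRCh38.p14) were found for 8 of the 10 genes, in 12 windows, and not for AURKA or RACGAP1. A TTTGAA on either strand stood in a window of 7 of the 8 genes, against 18.2% of all 27305 genes with a window. CCAAT on either strand also stood in a window of 7 of the 8, against 39.7%. A CHR core (TTTGAA or TTTAAA) and a CCAAT in the same window were found for 5 of the 8, against 11.2%. AURKB had CCAAT alone and ANLN had the CHR core alone. These counts describe letters in the windows and not bound sites. The 4 stretches printed here run from 150 bases before to 30 bases after the start and are shown because they hold a CHR core within 30 bases before the start, and because their genes include ANLN, with the lowest difference of the 10 in SKOV3 PGCCs, and PLK1, whose difference in PGCCs was large in Hey and small in SKOV3. They come from chr7:36389712-36389891 on the plus strand (ANLN), chr15:90994506-90994685 on the minus strand (PRC1), chr16:23678739-23678918 on the plus strand (PLK1) and chr10:93496462-93496641 on the plus strand (CEP55), and capitals mark CHR cores and CCAAT boxes in either orientation.
ANLN: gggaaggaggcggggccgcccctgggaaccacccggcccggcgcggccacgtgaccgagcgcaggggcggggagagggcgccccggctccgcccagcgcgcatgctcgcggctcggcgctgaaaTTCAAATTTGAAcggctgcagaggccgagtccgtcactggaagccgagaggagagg
PRC1: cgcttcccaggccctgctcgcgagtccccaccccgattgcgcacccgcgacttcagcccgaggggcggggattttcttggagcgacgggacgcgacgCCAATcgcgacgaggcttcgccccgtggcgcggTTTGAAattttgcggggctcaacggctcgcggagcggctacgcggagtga
PLK1: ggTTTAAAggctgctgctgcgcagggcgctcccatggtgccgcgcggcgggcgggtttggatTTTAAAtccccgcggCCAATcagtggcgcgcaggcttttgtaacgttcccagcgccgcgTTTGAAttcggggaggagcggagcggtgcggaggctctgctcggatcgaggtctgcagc
CEP55: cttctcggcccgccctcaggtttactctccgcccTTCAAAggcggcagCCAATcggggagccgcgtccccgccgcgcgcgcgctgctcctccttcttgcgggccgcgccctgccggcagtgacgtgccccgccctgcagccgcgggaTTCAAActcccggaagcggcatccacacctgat
The last CHR core before the start began 20 bases before it in ANLN, where a second copy on the opposite strand lay directly upstream at 26 bases. It began 20 bases before the start in PRC1, 29 in PLK1 and 3 in CEP55.

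The libraries had 19920 to 25370 genes above 0, with the highest number in Hey PGCCs. Transcripts of the mitochondrial genome made up 2.64%, 12.3% and 7.60% of all TPM in Hey parental cells, PGCCs and daughter cells, and 9.17%, 7.37% and 14.8% in SKOV3. The keratins KRT8 and KRT18 lay between 220 and 1052 TPM in every library and PAX8 between 54.7 and 136 TPM. The epithelial and ovarian markers MSLN and KRT19 were lowest in daughter cells of both lines. MSLN was at 21.5, 23.3 and 0.386 TPM in Hey parental cells, PGCCs and daughter cells and at 33.1, 46.1 and 1.85 TPM in SKOV3, and KRT19 was at 2.47, 3.60 and 0 TPM in Hey and at 292, 711 and 80.2 TPM in SKOV3. WT1, on the same list, went the other way and was highest in daughter cells of both lines. It was at 1.34, 0.530 and 4.10 TPM in Hey and at 0.545, 1.23 and 2.91 TPM in SKOV3. KRT18 was highest in daughter cells in Hey, at 672 TPM, but not in SKOV3. Of the 8 markers on that list, 5 were 2-fold lower in SKOV3 daughter cells than in PGCCs, against 9.25% of all 14988 genes. The list's median was -1.54 on the log2(TPM + 1) scale. These marker values are given without removal of a trend with the transcript's GC content. Over all genes, the SKOV3 difference between these 2 states fell with GC content (Spearman's rho -0.46). EPCAM, an epithelial adhesion molecule, was at 1.43 TPM or lower in Hey, against 8.15 to 68.8 TPM in SKOV3, and MUC16 was at 0.0322 TPM or lower in Hey. Fibroblast markers (9 genes) summed to 3.13 to 28.3 TPM, with the highest sum in SKOV3 daughter cells. Leukocyte markers (8 genes) summed to 17.4 to 70.3 TPM in 5 libraries, nearly all of it CD68, and to 2.05 TPM in SKOV3 daughter cells, where CD68 was at 0.840 TPM, with CD3E and MS4A1 at 0 throughout. The 4 endothelial markers summed to 33.7 to 49.1 TPM in Hey, nearly all of it CDH5, and to 0.343 to 2.92 TPM in SKOV3. The part of these marker levels in the results was not tested.

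TPM is scaled by transcript length, and levels are set beside each other between genes on that ground. Length scaling does not remove a trend with GC content. Across genes, the SKOV3 difference between PGCCs and parental cells rose with GC content (Spearman's rho 0.72). The 10 transcripts run from 36.3% (ECT2) to 57.1% GC (PLK1), and the part of GC content in the orders below was not tested. In parental Hey cells the 10 genes ranged from 24.1 TPM for PLK4 to 195 TPM for ANLN, and in parental SKOV3 cells from 44.8 TPM for PLK4 to 412 TPM for ANLN. PLK4 was the lowest of the 10 in every library but that of Hey PGCCs, where CIT was lowest and AURKB also lay below PLK4. ANLN was the highest in both parental libraries and in SKOV3 daughter cells. In Hey PGCCs ECT2 was the highest, in Hey daughter cells AURKA, and in SKOV3 PGCCs RACGAP1. With 1 library a state, it cannot be said which neighbours in these orders differ beyond their spread. Summed over the 10 genes, Hey parental cells held 1040 TPM, Hey PGCCs 274 TPM and Hey daughter cells 1251 TPM. The sums in SKOV3 were 1891, 1142 and 1358 TPM. In bulk RNA, fewer cells that express a gene and less of its RNA per cell cannot be told apart.

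**Figure D1:**
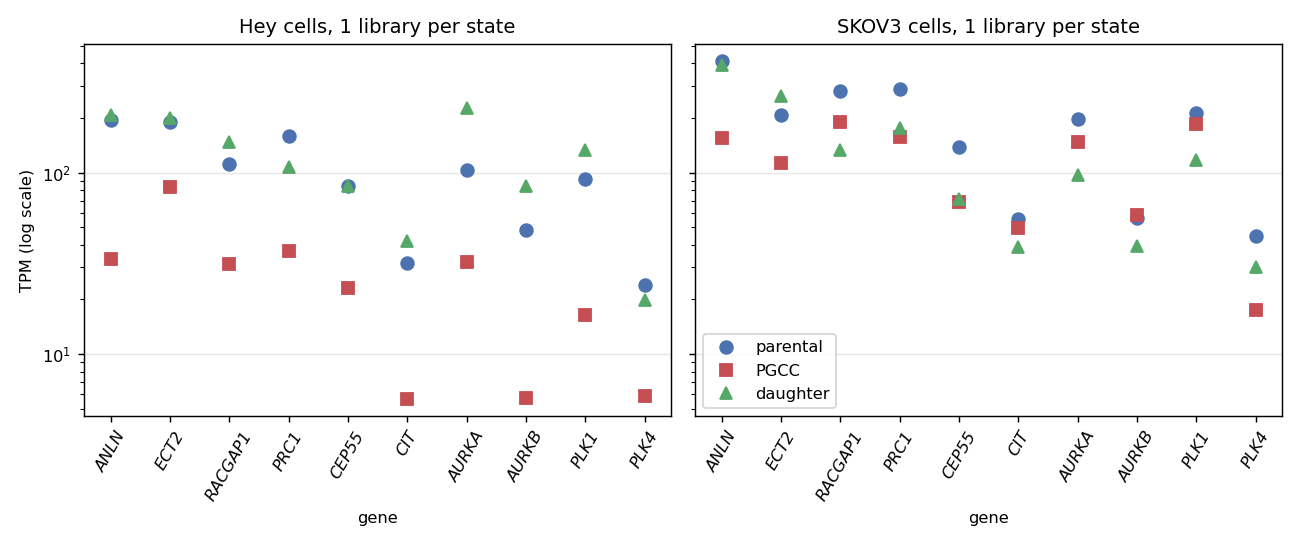
TPM of the 10 genes on a log axis in the parental, PGCC and daughter libraries of Hey and SKOV3; each point is 1 library and there are no error bars because no state has a replicate. In Hey all 10 genes were lower in PGCCs than in parental and daughter cells, and PRC1 and PLK4 stayed below parental in daughter cells. In SKOV3 only ANLN, ECT2, PRC1, CEP55 and PLK4 were higher in daughter cells than in PGCCs, and PRC1 and CEP55 were not with the GC trend removed.

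ANLN encodes anillin, the scaffold that links actin, myosin and septins in the contractile ring (chr7:36389821-36453791, plus strand, GENCODE 44 on GRCh38, as for the other genes). It was at 195 TPM in Hey parental cells, 33.3 TPM in PGCCs and 208 TPM in daughter cells. In SKOV3 the same states held 412, 156 and 393 TPM. ANLN was thus low in PGCCs of both lines, and the daughter level lay beside the parental level in each. ECT2, the exchange factor that switches on RhoA at the furrow (chr3:172750682-172821474, plus strand), was at 190, 82.9 and 199.5 TPM in Hey and at 208, 112 and 263 TPM in SKOV3. ECT2 was lowest in PGCCs of both lines and highest in daughter cells of SKOV3. In Hey its daughter level lay beside the parental level, and fell below it under some of the alternative processing. RACGAP1, which pairs with the kinesin KIF23 in centralspindlin and brings ECT2 to the midzone (chr12:49976923-50033136, minus strand), was at 112, 31.2 and 147 TPM in Hey and at 281, 190 and 132 TPM in SKOV3. Here the lines parted, since SKOV3 daughter cells lay below SKOV3 PGCCs.

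PRC1 bundles the antiparallel microtubules of the central spindle (chr15:90966040-90995629, minus strand). Its levels were 159, 37.0 and 107 TPM in Hey and 287, 158 and 176 TPM in SKOV3, with parental cells highest in both lines. An antisense transcript, PRC1-AS1, overlaps the gene and was at 0.277 to 0.979 TPM. CEP55 gathers the abscission machinery at the midbody (chr10:93496612-93529092, plus strand) and was at 83.9, 23.1 and 84.2 TPM in Hey and at 138, 68.5 and 71.4 TPM in SKOV3. CIT, citron kinase, organizes the midbody (chr12:119685791-119877320, minus strand) and was at 31.8, 5.63 and 41.8 TPM in Hey and at 55.3, 49.6 and 39.0 TPM in SKOV3. For CEP55 the Hey daughter level was that of the parental cells, whereas the SKOV3 daughter level stayed beside that of the PGCCs.

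AURKA, which works at centrosomes and spindle poles (chr20:56369389-56392337, minus strand), was at 103, 32.3 and 226 TPM in Hey and at 196, 147 and 97.2 TPM in SKOV3. A processed pseudogene of it, AURKAP1, was at most at 2.48 TPM, in Hey PGCCs, and reads of the pair could have been split between them. AURKB is the kinase of the chromosomal passenger complex, which corrects attachments and later moves to the central spindle (chr17:8204733-8210600, minus strand). It was at 48.0, 5.70 and 84.8 TPM in Hey and at 56.1, 58.6 and 39.4 TPM in SKOV3. The Aurora kinases therefore ran opposite ways between the daughter libraries: both were highest of the 3 states in Hey daughter cells and lowest in SKOV3 daughter cells.

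PLK1, the Polo-like kinase of mitotic entry, spindle formation and furrow placing (chr16:23677656-23690367, plus strand), was at 92.6, 16.4 and 133 TPM in Hey and at 212, 185 and 117 TPM in SKOV3. PLK4 starts centriole duplication (chr4:127880893-127899224, plus strand) and was at 24.1, 5.90 and 19.7 TPM in Hey and at 44.8, 17.5 and 30.1 TPM in SKOV3. PLK1 followed the Aurora kinases, with a low SKOV3 daughter level, and PLK4 was lowest in PGCCs of both lines and highest in parental cells.

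Comparing PGCCs with parental cells asks how the division program stands 3 days, by the treatment labels, after paclitaxel. A gene was called where log2(TPM + 1) differed by at least 1 (2-fold). In Hey, all 10 genes fell, against 5.22% of the 14988 genes that were lower and 7.67% that were higher by this rule. The median difference of the 10 was -1.97, against 0.00 for all 14988 genes, on the log2(TPM + 1) scale. By the ratio of TPM, parental cells exceeded PGCCs 8.41-fold for AURKB, 5.87-fold for ANLN, 5.65-fold for CIT and 5.63-fold for PLK1. The ratio was smallest for ECT2 at 2.29-fold, and lay between 3.19-fold (AURKA) and 4.29-fold (PRC1) for the remaining 5. AURKB ranked 32 from the lowest difference of the 14988 genes, ANLN 44, PLK1 50 and CIT 59, while ECT2 ranked 515. On the level scale, AURKB passed from the 82.1st percentile of expressed genes in Hey parental cells to the 38.2nd in PGCCs. The mitochondrial share rose from 2.64% to 12.3% between these libraries, and with mitochondrial transcripts left out all 10 genes were still called, with a median of -1.83 against 0.11 for all genes.

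In SKOV3, 3 of the 10 genes fell in PGCCs, against 4.96% of all genes lower and 9.94% higher: ANLN by 1.40, PLK4 by 1.31 and CEP55 by 1.00 on the log2 scale. The CEP55 value lies at the threshold and was -0.98 with quantile normalization, which left 2 genes called. The next were ECT2 at -0.88, PRC1 at -0.86 and RACGAP1 at -0.56, none of which reached 2-fold. The differences of AURKA (-0.41), PLK1 (-0.20), CIT (-0.15) and AURKB (0.06) were smaller still. The median of the 10 was -0.71, against 0.02 for all genes, and 9 of the 10 were below 0. AURKB, which had the largest fall in Hey, thus had a SKOV3 PGCC level beside that of its parental cells. Whether the difference differs between the lines could not be tested with 1 library a state.

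**Figure D2:**
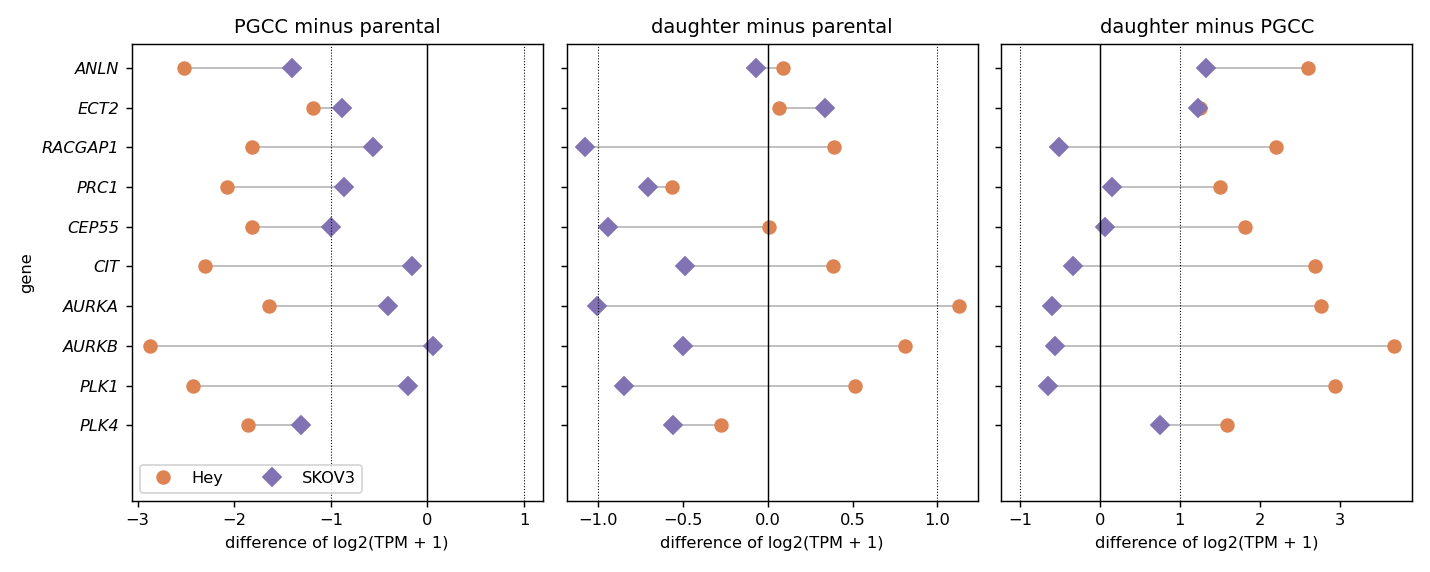
Difference of log2(TPM + 1) for each gene between PGCC and parental, daughter and parental, and daughter and PGCC libraries, with Hey as circles and SKOV3 as diamonds, each from 1 library a state; dotted lines mark 2-fold, and each panel has its own x axis. In PGCCs all 10 Hey points lie beyond 2-fold below parental, from -2.87 (AURKB) to -1.19 (ECT2), while the SKOV3 points run from -1.40 (ANLN) to 0.06 (AURKB).

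The SKOV3 differences ran with base composition. Over 13468 genes with a reference transcript, the SKOV3 difference between PGCCs and parental cells rose with the transcript's GC content (Spearman's rho 0.72 across genes, which share the same 2 libraries), and over the 10 genes rho was 0.83. In Hey, rho was -0.04 over all genes and -0.58 over the 10 genes. The median SKOV3 difference was -0.53 for genes under 40% GC and 0.93 for genes at or above 60%. ECT2 (36.3% GC), PLK4 (38.1%), ANLN (39.8%) and CEP55 (41.5%) are the AT-rich members, and AURKB (55.7%) and PLK1 (57.1%) the GC-rich ones. With the trend over GC content and length removed, all 10 genes were below 0 in SKOV3 PGCCs and none passed 2-fold, with a median of -0.55 and 2.64% of all genes lower. The lowest were then ANLN (-0.97), PRC1 (-0.78), PLK4 (-0.75) and PLK1 (-0.72), and AURKB stood at -0.36. Set against the median of genes within 1 percentage point of GC, a comparison chosen after these values were seen, the 10 genes lay 0.24 (AURKA) to 0.98 (ANLN) below genes of like GC content. In Hey the removal of the trend left all 10 genes called, with 4.97% of all genes lower and a median of -1.97 for the 10.

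**Figure D3:**
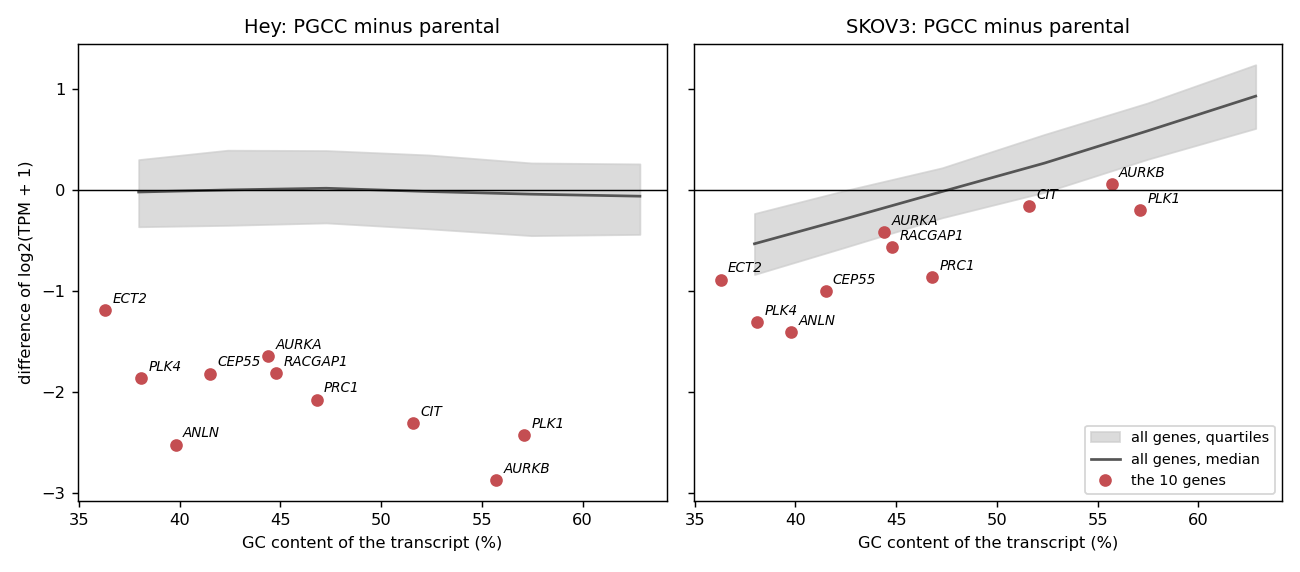
Difference of log2(TPM + 1) between PGCCs and parental cells against the GC content of the transcript in percent, for Hey and SKOV3; points are the 10 genes, and the line and band are the median and quartiles of all genes in 6 GC bins, drawn at each bin's median GC content. In SKOV3 the all-gene median climbs from -0.53 to 0.93 and all 10 genes lie below it, and in Hey it stays near 0 with all 10 genes between -2.87 and -1.19.

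Daughter cells were compared with parental cells to ask whether levels returned after recovery. This comparison shares the parental libraries with the one above. In Hey, 1 of the 10 genes was called: AURKA rose 2.20-fold by TPM (1.13 on the log2 scale), against 6.31% of all genes higher and 3.73% lower. Of the 10 differences, 8 were above 0, with a median of 0.24 against 0.05 for all genes, and only PRC1 (-0.56) and PLK4 (-0.27) were below. ANLN, ECT2 and CEP55 were near 0, and their lowest values under the alternative processing were -0.04, -0.06 and -0.12. The median was 0.11 with median-ratio scaling, against 0.00 for all genes. The AURKA call was lost at 1.00 with median-ratio scaling, just under the threshold. In SKOV3, 2 genes fell, against 6.34% of all genes lower and 15.1% higher: RACGAP1 (2.12-fold by TPM) and AURKA (2.02-fold). Of the 10 differences, 9 were below 0, with a median of -0.63 against 0.15 for all genes, and ECT2 alone was above at 0.34. CEP55 (-0.94), PLK1 (-0.85) and PRC1 (-0.71) were the next lowest. With mitochondrial transcripts left out none of the 10 was called in this comparison, and with median-ratio scaling 4 were. The mitochondrial share was 14.8% in SKOV3 daughter cells against 9.17% in parental cells.

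Daughter cells were also set against PGCCs, a comparison that shares the PGCC libraries with the first and is not independent of it. In Hey all 10 genes rose, against 9.95% of all genes higher and 8.13% lower, with a median of 2.40 against 0.03. The daughter level was 14.9-fold that of PGCCs for AURKB, 8.08-fold for PLK1, 7.43-fold for CIT and 7.01-fold for AURKA, and 2.41-fold for ECT2. In SKOV3 2 genes rose, against 14.6% of all genes higher and 9.25% lower: ANLN by 1.33 and ECT2 by 1.22. PLK4 was at 0.75, PRC1 at 0.15 and CEP55 at 0.06, and the other 5 were below 0, down to -0.65 for PLK1. The median in SKOV3 was -0.14 against 0.12 for all genes. The SKOV3 difference here fell with GC content across the 13468 genes (rho -0.46). With that trend removed ANLN stood at 0.82 and ECT2 at 0.58, with none of the 10 called and 10.6% of all genes higher. PLK4 was then at 0.18, while PRC1 (-0.07) and CEP55 (-0.34) lay below 0.

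Both lines together were fitted with limma, with a term for the line, so that the spread is the disagreement between the lines over 2 residual degrees of freedom. For PGCCs against parental cells none of the 10 passed an adjusted p of 0.05 (limma, adjusted p = 1 for each), and 3 of 14988 genes did (0.02%). At an unadjusted p under 0.05 limma gave 5 of the 10 and 409 genes in all (2.73%). Those 5 were ANLN (-1.96, SE 0.427), PLK4 (-1.58, SE 0.403), PRC1 (-1.47, SE 0.439), ECT2 (-1.04, SE 0.347) and CEP55 (-1.41, SE 0.477). AURKB, at -1.40 with an SE of 0.878, had the widest error of the 10, the lines being furthest apart for it. With each library left out in turn, the count at an unadjusted p under 0.05 ran from 1 of the 10, without Hey parental cells (1.57% of all genes), to 9, without SKOV3 PGCCs (4.38%). In the latter fit the PGCC arm is 1 Hey library, which is assumed to vary like the other groups. The count was 2 without Hey PGCCs, 3 without SKOV3 parental cells and 6 without either daughter library. For daughter cells against PGCCs none of the 10 passed, with limma's adjusted p from 0.908 to 0.913, nor did any other gene (0%), and 3 had an unadjusted p under 0.05: ANLN (1.97), ECT2 (1.24) and PLK4 (1.17), beside 5.06% of all genes. That count was 9 without the SKOV3 PGCC library (5.38% of all genes) and 9 without the SKOV3 daughter library (6.06%), which likewise leave 1 Hey library in that arm, and 2 without each of the other 4 libraries. For daughter against parental cells none of the 10 passed by limma at either level, against 0.0133% of all genes at the adjusted and 3.39% at the unadjusted level.

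The partners of these genes were read from lists. Counts from the lists stand beside the shares of all 14988 genes called lower and higher. For PGCCs against parental cells these were 5.22% and 7.67% in Hey and 4.96% and 9.94% in SKOV3. For daughter against parental cells they were 3.73% and 6.31% in Hey and 6.34% and 15.1% in SKOV3. For daughter cells against PGCCs they were 8.13% and 9.95% in Hey and 9.25% and 14.6% in SKOV3. Central spindle and chromosomal passenger partners moved with the 10 genes: in Hey PGCCs all 11 fell, with a median of -2.17, from INCENP (-2.63), the passenger scaffold that activates AURKB, and KIF20A (-2.30), a kinesin of the midzone, to KIF20B (-1.80) and SHCBP1 (-1.71). In SKOV3 PGCCs 3 of the 11 fell, with a median of -0.47, among them KIF20B (-1.36) and SHCBP1 (-1.08), while KIF20A (-0.16) and ARHGEF39 (-0.05) had the smallest differences. The count was 1 with the GC trend removed and 5 with median-ratio scaling. In Hey daughter cells INCENP was the sole member called above parental (1.09), a call lost with median-ratio scaling, quantile normalization and the GC trend removed, and in SKOV3 daughter cells KIF20B was the sole member called below (-1.27), with 3 called under median-ratio scaling and with the GC trend removed. Against PGCCs, Hey daughter cells had all 11 higher with a median of 2.54, and SKOV3 daughter cells had none called with a median of -0.15.

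The structural parts of the ring and of the abscission machinery were called as follows, beside the shares of all genes given above. Of 19 contractile ring genes, 2 fell in Hey PGCCs, against 5.22% of all genes: DIAPH3, a formin (-1.72), and MYH10, a non-muscle myosin heavy chain (-1.36). The list's median was -0.31, and MYL9, a myosin light chain, was at 0.99. In SKOV3 PGCCs none of the 19 was called and the median was -0.01, between MYL12B (-0.96) and SEPTIN9 (0.86). Of 20 genes of the abscission machinery, mostly ESCRT-III subunits, CHMP4C rose in Hey PGCCs (1.01, against 7.67% of all genes, and not called with median-ratio scaling, quantile normalization or the GC trend removed) and CHMP7 had the lowest value (-0.74). In SKOV3 PGCCs CHMP7 (1.33) and CHMP1A (1.16) rose, against 9.94% of all genes, and neither remained called with the GC trend removed. The abscission medians were -0.03 and -0.11, and their sign changed with the scaling or with the GC trend. In daughter against parental cells the ring list had 1 gene called lower in Hey (SEPTIN10, -1.14) and 1 higher in SKOV3 (MYH14, 1.36, not called with quantile normalization or the GC trend removed), with medians of -0.16 and -0.06, and the abscission list none in Hey and CHMP6 in SKOV3 (-1.03, not called with mitochondrial transcripts left out), with medians of 0.08 and -0.07. Against PGCCs, daughter cells had 2 ring genes higher and 1 lower in Hey and 1 higher in SKOV3 (medians 0.17 and 0.19), and 1 abscission gene in each direction in Hey and 2 lower in SKOV3 (medians 0.07 and -0.19). With the GC trend removed, the SKOV3 ring median turned to -0.18 and the Hey abscission median to -0.08.

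**Figure D4:**
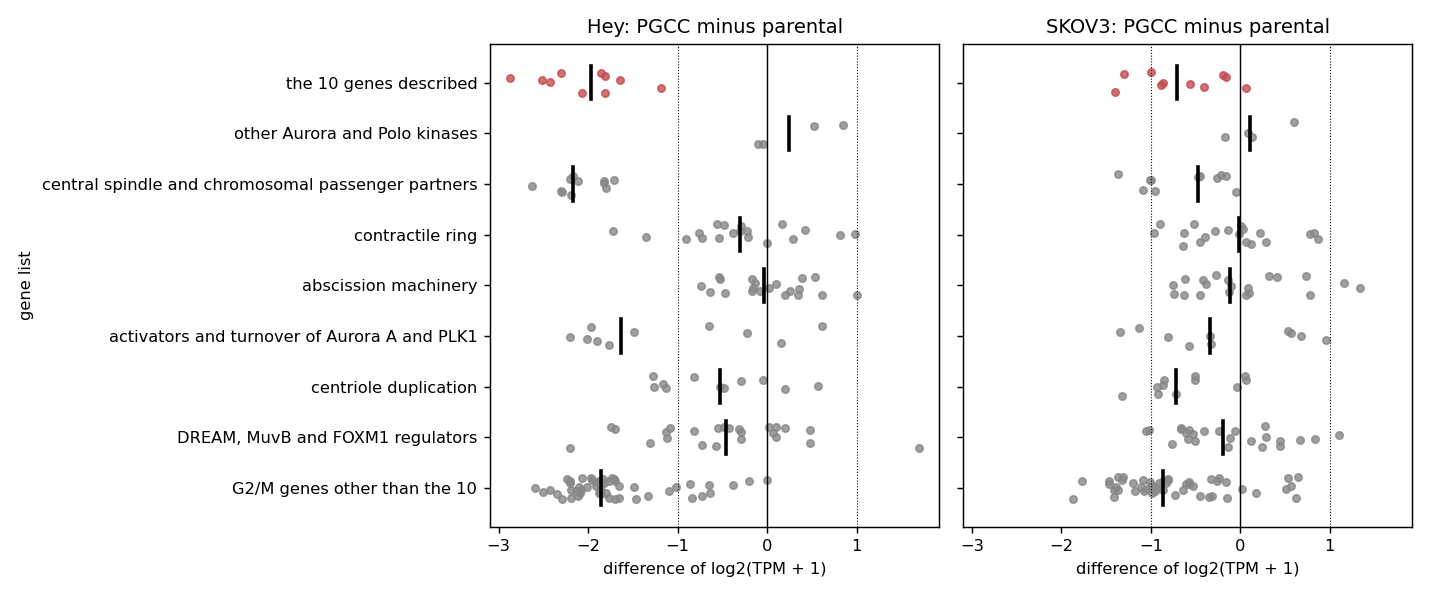
Difference of log2(TPM + 1) between PGCCs and parental cells for the 10 genes (top) and 8 lists of related genes in Hey and SKOV3; each point is a gene, the black bar is the list's median, dotted lines mark 2-fold and both panels share an x axis. In Hey the 10 genes (-1.97), the central spindle partners (-2.17) and the other G2/M genes (-1.86) lie apart from the contractile ring (-0.31) and abscission (-0.03) lists.

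None of the other 4 Aurora and Polo kinases was called in PGCCs against parental cells. PLK2, which is induced in G1 and by stress, was at 525, 489 and 544 TPM in Hey and at 321, 284 and 228 TPM in SKOV3. It was the most abundant Polo-like kinase in every library. PLK3, also a stress-responsive kinase, was at 16.4, 30.4 and 17.0 TPM in Hey and at 10.1, 15.9 and 5.29 TPM in SKOV3, with PGCCs highest in both lines. Its PGCC differences of 0.85 and 0.60 did not reach 2-fold, and SKOV3 daughter cells lay below PGCCs by -1.43, the single call in this list of 4 in any comparison, which was lost with the GC trend removed. AURKC stayed at or below 1.19 TPM and PLK5 was nearly absent. The medians of the 4 for PGCCs against parental cells were 0.24 in Hey and 0.11 in SKOV3. Removal of the GC trend covered only the 2 of them with a mean of at least 1 TPM, PLK2 and PLK3. Their SKOV3 median was 0.22 before it and -0.10 after it. For daughter against parental cells they were 0.05 and -0.54, and against PGCCs -0.19 and -0.50.

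Genes that activate AURKA and PLK1 or mark them for destruction were 10 in number, and 6 fell in Hey PGCCs (median -1.63). Among these were UBE2C (-2.20), the ubiquitin carrier of the anaphase-promoting complex, and TACC3 (-2.01), a partner of AURKA on the spindle, whereas the scaffolds NEDD9 (0.61) and AJUBA (0.15) lay above 0. In SKOV3 PGCCs 2 fell (median -0.33), the anaphase-promoting complex inhibitor FBXO5 (-1.34) and BORA (-1.13), the cofactor through which AURKA activates PLK1, and neither was called with the GC trend removed. UBE2S (0.67) and FZR1 (0.96) had the highest SKOV3 values. Hey daughter cells had none called against parental (median 0.34) and 6 higher than in PGCCs (median 2.09). SKOV3 daughter cells had BORA (-1.66) and UBE2C (-1.01) lower and AJUBA (1.11) higher than parental (median -0.76), against 6.34% and 15.1% of all genes. Median-ratio scaling gave 5 lower and 0 higher, and the GC trend removed also gave 0 higher. Against PGCCs 3 were lower in SKOV3 daughter cells (median -0.21), beside 9.25% of all genes.

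Among 11 genes of centriole duplication, the pathway that PLK4 starts, 4 fell in Hey PGCCs (median -0.53), CEP152 and STIL lowest at -1.27 each, and TRIM37 was highest at 0.57. In SKOV3 PGCCs SASS6, the cartwheel protein, fell (-1.32) and the median was -0.72, with none called and a median of -0.35 once the GC trend was removed. Hey daughter cells had 4 higher than in PGCCs (median 0.83) and none called against parental (median 0.06). SKOV3 daughter cells had 2 higher than in PGCCs (median 0.47), against 14.6% of all genes. None was called under median-ratio scaling or with the GC trend removed (median -0.03). Against parental cells, SKOV3 daughter cells had TRIM37 higher (1.02) and CENPJ lower (-1.30), beside 15.1% and 6.34% of all genes. The median there was -0.27. The TRIM37 call was lost with median-ratio scaling, quantile normalization and the GC trend removed.

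Regulators of CHR and CCAAT promoters, with E2F factors and CDKN1A, were a list of 24. In Hey PGCCs 7 fell and 1 rose, with a median of -0.45. FOXM1 and MYBL2, activators of G2 and mitotic genes, had the lowest differences, at -2.21 and -1.75, and CDKN1A, which encodes the cyclin-dependent kinase inhibitor p21, the highest at 1.70. FOXM1 was at 90.6, 18.8 and 137 TPM in Hey parental cells, PGCCs and daughter cells, and CDKN1A at 148, 480 and 89.4 TPM. In SKOV3 PGCCs 2 fell, E2F8 (-1.06) and LIN9 (-1.02), and LIN37 rose (1.10), against 4.96% of all genes lower and 9.94% higher. The median was -0.19, and none of the 3 was called with the GC trend removed. FOXM1 in SKOV3 was at 74.6, 101 and 61.6 TPM and MYBL2 at 113, 180 and 103 TPM, so that both were highest in PGCCs there. Their differences from parental cells, 0.44 and 0.66, did not reach 2-fold. They are given without removal of the GC trend, with which SKOV3 PGCC differences rose over all genes (rho 0.72). CDKN1A was at 4.76, 6.84 and 3.73 TPM in SKOV3, far under its Hey levels. In Hey daughter cells 2 were higher than parental, MYBL2 (1.44) and RBL1 (1.02), against 6.31% of all genes. That count was 1 with median-ratio scaling or quantile normalization. In SKOV3 daughter cells none was called against parental, beside 6.34% of all genes lower and 15.1% higher. The medians were 0.22 in Hey and -0.26 in SKOV3. Against PGCCs, Hey daughter cells had 6 higher and CDKN1A lower (median 0.71), and SKOV3 daughter cells had none called (median 0.20), or 1 in each direction with the GC trend removed (median -0.16).

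A wider list of 50 other G2/M genes, 8 of which also stand in the lists above, placed the 10 genes among their kind. In Hey PGCCs 42 of the 50 fell (median -1.86), with TOP2A (-2.59) and MKI67 (-2.51) lowest. In SKOV3 PGCCs 18 fell (median -0.86), with CDK1 (-1.87) and TOP2A (-1.77) lowest and PSRC1 (0.65) and TUBB4B (0.62) highest, and the count was 4 with the GC trend removed (median -0.59). Against parental cells, 2 were higher in Hey daughter cells (median 0.26), beside 6.31% of all genes. In SKOV3 daughter cells 8 were lower (median -0.67), beside 6.34% of all genes. The SKOV3 count was 6 with mitochondrial transcripts left out and 19 with median-ratio scaling. Against PGCCs, 42 were higher in Hey daughter cells (median 2.003), beside 9.95% of all genes. In SKOV3 daughter cells 3 were higher and 3 lower (median 0.21), beside 14.6% and 9.25% of all genes. With the GC trend removed 0 were higher and 2 lower there (median -0.12).

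The genes whose pattern over the 6 libraries was nearest to the mean of the 10 were found by the root mean square difference of log2(TPM + 1), centred within each line. The nearest of 10782 other genes with a mean of at least 5 TPM was CENPF, a kinetochore protein of G2 and mitosis, at 0.067, followed by KIF2C (0.070), RAD51AP1 (0.072), CDC45 (0.090), RRM1 (0.103), TACC3 (0.108), TMPO and DEPDC1B (0.111 each), MCM10 (0.116) and ZWINT (0.126). The median gene lay at 0.805, and the 10 genes themselves between 0.181 (CEP55) and 0.476 (ECT2). CENPF was at 91.1, 20.9 and 119 TPM in Hey and at 177, 119 and 133 TPM in SKOV3. Of the 10 nearest, RRM1, CDC45 and MCM10 are known for DNA synthesis and RAD51AP1 for DNA repair, and KIF2C, TACC3 and ZWINT for the spindle and kinetochore.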

How the data were processed

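Total RNA of Hey and SKOV3 cells was sequenced from 1 library for each of 6 conditions. The authors trimmed reads with fastp and quantified transcripts with Salmon 0.14.1 against hg38, per the submitters' processing notes, and deposited TPM values, relative transcript abundances scaled by length, per gene symbol. The TPM table keeps no read counts, so the counting error of a value could not be computed from it and no interval was given. The strandedness of counting is not given in the sources used here, so overlapping and antisense genes could not be told apart by strand. All columns were mapped to samples by name.

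Differences of log2(TPM + 1) were taken within each line for every gene, with a call at 2-fold, and the share of calls was counted over the 14988 genes whose TPM averaged 1 or more. limma 3.58.1 (R 4.3.3) fitted state and cell line over these genes, two-sided, letting the prior variance follow the mean level and adjusting p-values by Benjamini-Hochberg. The fit was run on simulated data in which both lines changed alike, so that run does not cover lines that disagree. The lines served as the repeats of each state, so its p-values measure the disagreement between lines. No source states how many cultures a library holds. GC content, length and gene positions came from GENCODE 44 (GRCh38), for 89.9% of the 14988 genes, and the trend was removed by lowess (statsmodels 0.14.6). Promoter windows came from RefSeq (GRCh38.p14). Pseudocount, filter, scaling, fold and GC trend were varied.

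The 10 genes, the 8 gene lists and the 4 marker lists were chosen with earlier results of these data known. All 10 genes are named. From each list up to 4 genes are named, those with the largest and smallest difference in the comparison described among genes averaging 1 TPM or more, and all genes of lists of 4 or fewer. Further values of a gene named for 1 comparison were added after they were seen.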

Additional observations from a re-analysis of the deposited data

Results flagged for a closer look

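The libraries of Hey and SKOV3 lay on opposite sides of 0 under the same contrast for 1 of the 10 genes in PGCCs against parental cells, for 7 in daughter against parental cells and for 5 in daughter cells against PGCCs. Of all 14988 genes, 48.6%, 47.9% and 52.2% did so in the same contrasts. Each side is 1 library against 1, so the difference between the lines was not tested, and the comparisons share libraries. All values are differences of log2(TPM + 1).

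In PGCCs against parental cells, AURKB was at -2.87 in Hey and 0.06 in SKOV3. The SKOV3 value is near 0 and became -0.36 with the GC trend removed.

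In daughter against parental cells, AURKA was at 1.13 in Hey and -1.01 in SKOV3, and both pass 2-fold. Both calls depend on the processing. The Hey value was just under the threshold with median-ratio scaling, and the SKOV3 value ranged up to -0.92 under the alternatives. With the GC trend removed the SKOV3 value was -0.98, and PLK1, at -1.07, was called in its place. RACGAP1 was at 0.39 and -1.08, PLK1 at 0.52 and -0.85, AURKB at 0.81 and -0.50, and CIT at 0.38 and -0.49. ANLN, at 0.091 and -0.07, and CEP55, at 0.0054 and -0.94, have a Hey value near 0.

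In daughter cells against PGCCs, AURKB was at 3.68 in Hey and -0.56 in SKOV3, and PLK1 was at 2.94 and -0.65. AURKA was at 2.77 and -0.60, CIT at 2.69 and -0.34, and RACGAP1 at 2.20 and -0.52.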

How the results depend on the processing

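All 10 genes were called in Hey PGCCs against parental cells and in Hey daughter cells against PGCCs under every alternative run, except that the count at 3-fold was 9 and 8. In SKOV3 PGCCs against parental cells the count of 3 became 0 with the GC trend removed, against genes of like GC content (added after the data were seen) and at 3-fold, and 5 at 1.5-fold. In Hey daughter against parental cells the count of 1 became 0 with median-ratio scaling and at 3-fold, and 2 at 1.5-fold. In SKOV3 daughter against parental cells the count of 2 became 4 with median-ratio scaling, 1 with quantile normalization, 0 with mitochondrial transcripts left out and at 3-fold, and 5 at 1.5-fold. In SKOV3 daughter cells against PGCCs the count of 2 became 0 with the GC trend removed, against genes of like GC content and at 3-fold, and 5 at 1.5-fold. Those 5 were of both directions: ANLN, ECT2 and PLK4 were higher, and AURKA and PLK1 lower. The share of all genes was not counted at 1.5-fold or 3-fold. The cause of the changes with scaling was not tested. For single genes, 37 of 480 values moved. Where scaling moved the all-gene median by over 0.1, the members' median in SKOV3 daughter against parental cells was -0.84 beside -0.02 for all genes (median ratios) and -0.65 beside -0.04 (quantile normalization), in Hey PGCCs against parental -1.83 beside 0.11 (mitochondrial transcripts left out) and in SKOV3 daughter cells against PGCCs -0.02 beside 0.22 (mitochondrial transcripts left out), -0.29 beside 0.00 (median ratios) and -0.23 beside 0.00 (quantile normalization). The limma count was 0 of 10 in each comparison under every alternative, and from 0 to 0 with each library left out (1 residual degree of freedom), with adjusted p by limma from 0.881, 0.492 and 0.381 upwards. Of the 10 nearest genes 8 and 9 were shared with pseudocount 0.1 and median-ratio scaling. No paired analysis was possible by replicate number, because each group has a single one. The cell line term of the limma fit pairs the states within a line, and without it 0 of 10 genes passed.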

Other observations

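Ratios of TPM between paired members differed between the libraries, and with 1 library a state they have no error. AURKA exceeded AURKB 2.15-fold in Hey parental cells, 5.66-fold in PGCCs and 2.67-fold in daughter cells, and 3.50-, 2.52- and 2.47-fold in SKOV3. PLK1 exceeded PLK4 3.85-, 2.79- and 6.73-fold in the same Hey states and 4.73-, 10.5- and 3.90-fold in SKOV3. ECT2 exceeded its partner RACGAP1 1.70-, 2.66- and 1.36-fold in Hey, whereas in SKOV3 the ratio was 0.741, 0.590 and 1.99. PLK2 was 29.7-fold above PLK1 in Hey PGCCs, against 5.66- and 4.10-fold in Hey parental and daughter cells and 1.51-, 1.54- and 1.94-fold in SKOV3. The PLK1 transcript is 57.1% GC and the PLK4 transcript 38.1%, and with the GC trend removed the SKOV3 differences between PGCCs and parental cells were -0.72 and -0.75 on the log2 scale. AURKA is 44.4% GC and AURKB 55.7%, and these differences were then -0.16 and -0.36. For ECT2 (36.3% GC) and RACGAP1 (44.8%) they were -0.25 and -0.38. AURKA then fell less than AURKB, and ECT2 less than RACGAP1, the reverse of their order without that removal.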
